A study of Mus musculus with 6 samples.

Results

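Heat shock proteins are molecular chaperones that bind unfolded or partly folded proteins, and many of them are made in larger amounts under heat, hypoxia and other stresses. Heat shock factor 1 (Hsf1) is the transcription factor that switches many of these genes on by binding heat shock elements in their promoters, and in unstressed cells it is kept inactive by chaperones of the same families. Tumour cells commonly carry high levels of several of these proteins.

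The 10 genes examined were Hspa8, Hspa1a and Hspa1b (the cytosolic HSP70 proteins), Hsph1 (HSP110), Dnajb1 (HSP40), Hsp90aa1 (HSP90α), Hspd1 (HSP60), Hspe1 (HSP10), Hspb1 (the small heat shock protein known as HSP25 or HSP27) and Hsf1 itself. They were picked by their gene symbol from the 18182 genes in the files, and all 10 were found. The sequenced cells came from Lewis lung carcinoma (LLC), a lung cancer cell line of the mouse, marked with red fluorescent protein (LLC-RFP). Wild type C57BL/6 mice received them under the skin either alone (LLC alone, 3 libraries) or together with mouse bone marrow-derived mesenchymal stem cells (LLC with BMSCs, 3 libraries), and fluorescent cells were sorted from the primary tumours before RNA sequencing. Female mice aged 6 weeks served for the study's tumour growth experiments, and the age and sex of the sequenced mice and the number behind each library were not given separately in the sources used here, so p-values measure the spread between libraries, which may be technical. Each mouse kept its own host cells, and the fluorescent sort was what separated the cancer cells from them.

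Counted fragments per library ranged from 33476347 to 46189113. Tests used edgeR's quasi-likelihood test on the estimated counts of all 13353 genes that passed its filter on low counts, with Benjamini-Hochberg adjustment over all of them, and a gene was called at an adjusted p under 0.05. Levels are given as FPKM (fragments scaled by transcript length and by the library's total), and can be compared between genes. The sort was checked with marker genes. Epithelial markers summed to 157–177 CPM (counts scaled to a common library total) in LLC alone and 189–197 in LLC with BMSCs, nearly all from Krt8, while Epcam, Cdh1, Krt7 and Krt19 stayed below 0.2 CPM in every library. Mesenchymal stromal markers summed to 361–429 against 798–846 CPM, and all 9 tested markers were called higher with BMSCs. Most of both sums came from Col3a1 (202–240 against 544–560 CPM). Thy1 was at 0 in LLC alone and stayed below 0.1 CPM with BMSCs. Macrophage markers summed to 23.8–28.6 against 33.9–36.3 CPM, with 5 of 7 tested markers called higher and 1 lower. Adgre1 went from 0 to 1.35–1.79 CPM and Itgam from 0–0.108 to 5.24–5.47 CPM. Csf1r (0.388–0.477 against 1.81–2.27), Mrc1 (0.130–0.269 against 1.21–1.73) and Lyz2 (2.39–3.47 against 4.49–4.90) also lay higher with BMSCs. Cd14, the largest part of the LLC alone sum, was at 14.3–17.1 against 15.0–17.7 CPM. Cd68 was at 6.13–7.30 CPM in LLC alone and 3.20–4.07 CPM with BMSCs. C1qa and C1qc, at 0 in LLC alone, stayed below 0.1 CPM with BMSCs. Neutrophil markers summed to 0.469–0.789 against 18.3–21.2 CPM, and all 6 tested markers were called higher. Most of the latter sum came from S100a8 (5.70–6.89 CPM) and S100a9 (9.55–11.9 CPM). Mpo and Elane, at 0 in LLC alone, reached 0.319–0.741 and 0.114–0.247 CPM with BMSCs. Ly6g was at 0.0217–0.0896 against 0.0227–0.0674 CPM, and Retnlg had no counts in any library. Lymphocyte markers (0.39–0.542 against 2.52–2.77 CPM, nearly all of the latter from the general leukocyte marker Ptprc, with Cd8a at 0.173–0.217 against 0.0907–0.135 and Nkg7 at 0 in LLC alone), endothelial markers (1.04–1.25 against 1.35–1.75) and erythroid markers (8.56–8.98 against 11.2–12.1) were low in both groups. The part of these other cell types in the values of the heat shock genes was not tested, and fewer cells of a type cannot be told apart from less RNA per cell in bulk libraries.

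Heat shock elements are built of inverted repeats of GAA, and promoter windows of RefSeq genes (build GRCm38.p6, 250 bases before to 50 bases after a start site) were searched for GAANNTTC and TTCNNGAA, with 2 units, and for each of these followed by 2 free bases and 1 further inverted unit (GAA or TTC), with 3 units. The 2-unit motifs read the same on both strands, each 3-unit motif is the other one on the opposite strand, and every 3-unit match contains 2-unit matches. Windows were found for 7 of the 10 genes. A 2-unit motif was present for 6 of the 7, against 15.1% of all 32851 windows, and a 3-unit motif for 3 (Hspd1, Hspe1 and Hsph1), against 0.603%. The former are counts of genes, where a match in any window of a gene sufficed, and the latter are shares of windows. The genes are also not independent, because Hspd1 and Hspe1 share an element and the Hspa1a and Hspa1b windows are nearly identical. Dnajb1 had 2 windows and none of these motifs in either. The stretches below hold the matches before the start site, in capitals, and are shown because motifs of this kind are what Hsf1 is known to bind. Of the genes that carry them, Hspa1a and Hspb1 had too few counts to be tested, Hspe1 and Hspa1b were called lower, and Hspd1 and Hsph1 were not called. For Hspa8 and Hsp90aa1, the 2 genes called higher, no window was at hand. Whether the motifs bear on these calls was not tested. Hspd1 and Hspe1 lie head to head and share 1 element, read from opposite strands at chr1:55088053-55088082, within the 216 bases between a RefSeq start site of each. In Hspd1 this place is also inside the first exon of an alternative transcript.
Hspe1, plus strand: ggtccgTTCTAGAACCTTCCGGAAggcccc
Hspd1, minus strand: ggggccTTCCGGAAGGTTCTAGAAcggacc
Hspb1, chr5:135887801-135887830, plus strand: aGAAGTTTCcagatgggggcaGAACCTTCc
Hsph1, chr5:149636351-149636380, minus strand: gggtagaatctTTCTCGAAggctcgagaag
Hspa1b, chr17:34959324-34959353, minus strand: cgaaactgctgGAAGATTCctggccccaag
Hspa1a, chr17:34972242-34972271, minus strand: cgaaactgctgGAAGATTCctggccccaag
The Hspa1a and Hspa1b stretches were identical, and 296 of the 300 bases of their windows were equal position by position. The 3-unit match of Hsph1, TTCTGGAAAGTTC, lay after the start site and began at base 16 or 37, depending on which of 2 RefSeq start sites was used. A match is a stretch of letters and no measurement of Hsf1 binding, which was not assayed.

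Of the 10 genes, 8 passed the filter on low counts, and 2 rose, 2 fell and 4 were not called. Hspa8 and Hsp90aa1 rose in LLC with BMSCs, and Hspe1 and Hspa1b fell. The background was high, because 31.5% of all tested genes were called higher and 31.3% lower, or 62.9% in either direction, so a share of 4 in 8 is below it. FPKM values of the groups did not overlap for 6 of the 8 tested genes, against 70.6% of tested genes. The median log2 fold change was 0.056 over the 8 genes and 0.012 over all tested genes. An exact permutation test of 3 libraries against 3 has 10 splits and cannot give a two-sided p below 0.1, which is the value it gave for each of those 6.

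**Figure D1:**
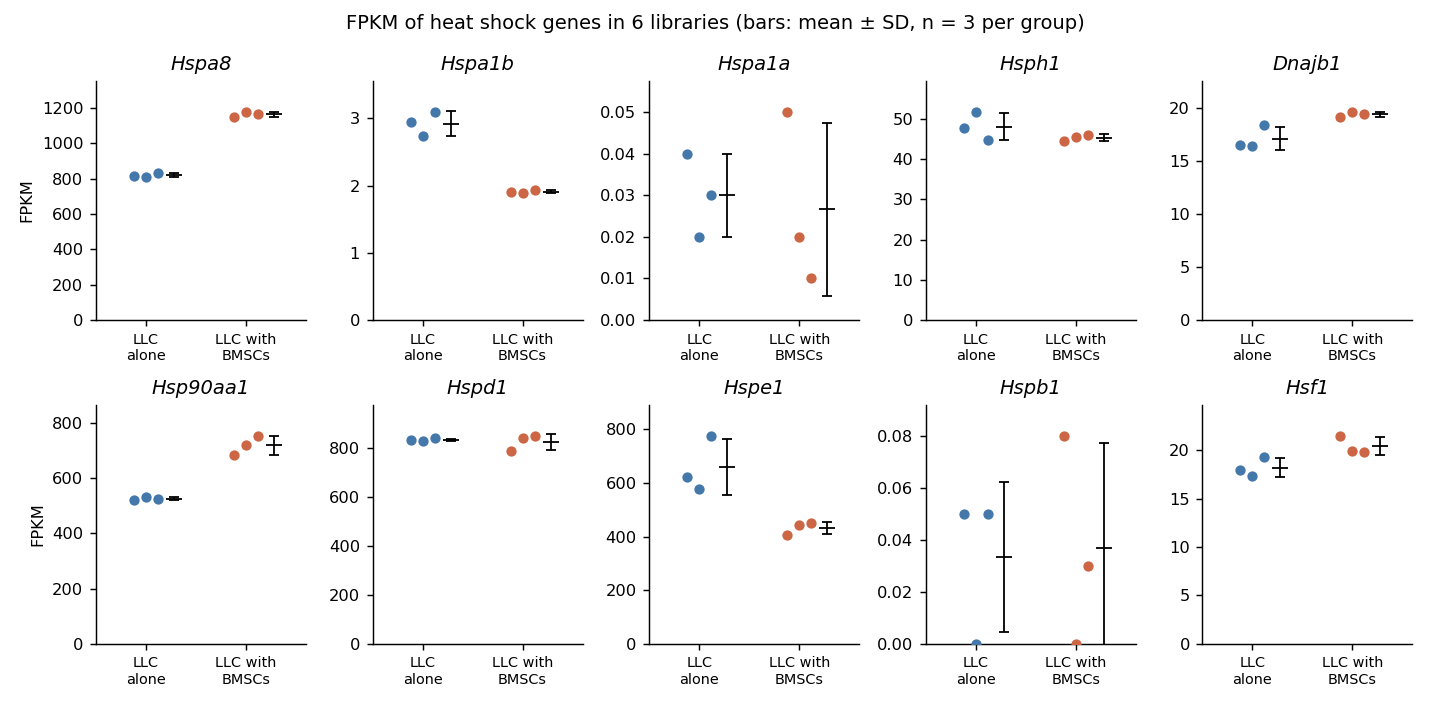
FPKM of the 10 heat shock genes (y axes, each from 0) in the 3 LLC alone libraries (blue) and the 3 LLC with BMSCs libraries (orange), with the mean and SD as black bars. Hspa8 and Hsp90aa1 lie higher with BMSCs in every library, Hspe1 and Hspa1b lie lower, and Hspa1a and Hspb1 stay below 0.1 FPKM.

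The levels spanned a wide range. In LLC alone, Hspd1 (834 ± 4.37 FPKM, SD, n = 3) and Hspa8 (821 ± 11.8) were highest, with overlapping ranges, followed by Hspe1 (658 ± 104) and Hsp90aa1 (527 ± 6.77). Hsph1 came next at 48.1 ± 3.42 FPKM, then Hsf1 (18.2, from 17.33 to 19.29) and Dnajb1 (17.1 ± 1.10), which overlapped, and then Hspa1b at 2.92 ± 0.181. In LLC with BMSCs the order was Hspa8, Hspd1, Hsp90aa1, Hspe1, Hsph1, Hsf1, Dnajb1 and Hspa1b, with no overlap between neighbours. The most abundant chaperones, Hspa8, Hsp90aa1, Hspd1 and Hspe1, made up 96.9% to 97.4% of the summed FPKM of the 10 genes in every library. Within that sum, the mean share of Hspa8 was 28.1% in LLC alone and 36.1% with BMSCs, that of Hsp90aa1 18.0% and 22.3%, that of Hspd1 28.5% and 25.5%, and that of Hspe1 22.4% and 13.4%. The sum itself was 2926 ± 118 FPKM in LLC alone and 3230 ± 98.8 FPKM with BMSCs. As a share of all FPKM it was 0.544% ± 0.0141 and 0.671% ± 0.0103. Both were without overlap (exact permutation p = 0.1 for each, two-sided, n = 3 per group). All FPKM of a library summed to 515662 to 579328 in LLC alone and 470940 to 489275 with BMSCs, so the share also rose through a smaller total.

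Hspa8, the constitutive HSP70 of the cytosol (HSC70), folds new proteins and strips clathrin from vesicles. Its level was 815.66, 811.98 and 833.98 FPKM in the 3 LLC alone libraries and 1150.96, 1176.52 and 1164.01 FPKM in the 3 with BMSCs. All 3 libraries with BMSCs lay above all 3 without, and the gap was many times the spread within either group. The mean went from 821 to 1164 FPKM, an increase of 41.8%, with a log2 fold change of 0.48 (SE 0.049, edgeR adjusted p = 0.000102). Of the 804 tested genes with a mean of at least 100 FPKM, 14.1% were called higher and 51.4% lower, a background that was added after the values were seen. The gene lies on chr9:40800984-40810087 (GRCm38, plus strand). Of the 100-base windows of its reference transcript, 63.4% also occur in transcripts of other genes, mainly processed copies. None of these was listed here under its own symbol. The estimated counts of Hspa8, Hsp90aa1 and Hspd1 were fractional in all 6 libraries. Which other sequences their reads were divided with was not tested.

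Hspa1b and Hspa1a encode the stress-inducible HSP70, the classic target of Hsf1, in a pair of near-identical genes on chr17:34956436-34959238 and chr17:34969190-34972156 (both minus strand). Hspa1b was listed at 2.94, 2.73 and 3.09 FPKM in LLC alone and at 1.9, 1.89 and 1.93 FPKM with BMSCs. It was lower in every library with BMSCs, with a log2 fold change of −0.64 (SE 0.086, adjusted p = 0.000435). Hspa1a was listed at 0.04, 0.02 and 0.03 FPKM in LLC alone and 0.05, 0.02 and 0.01 FPKM with BMSCs, from 1.55 to 6.23 estimated counts, and did not pass the filter. In the reference annotation 1350 windows of 100 bases occur in both genes, which is 47.1% of the windows of Hspa1a and 49.9% of those of Hspa1b. Both genes had fractional counts in all 6 libraries, and their sum does not depend on how such reads were divided between them. The sum was 2.98, 2.75 and 3.12 FPKM against 1.95, 1.91 and 1.94 FPKM, and fell by 0.63 on the log2 scale (SE 0.086, adjusted p = 0.000466). Hspa8 therefore stood 282 ± 14.2 times above Hspa1b in FPKM in LLC alone and 610 ± 10.5 times with BMSCs. A small part of the windows, 4.67% of those of Hspa1a and 3.29% of those of Hspa1b, is also shared with Hspa1l, a testis-enriched HSP70 gene named here after its values were seen, which fell from 2.47 to 1.92 FPKM (log2 fold change −0.38, adjusted p = 0.00615).

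Hsph1 encodes HSP110, which exchanges the nucleotide of HSP70 and joins it in dissolving aggregates, and lies on chr5:149614287-149636376 (minus strand). Its level was 47.7, 51.71 and 44.9 FPKM in LLC alone and 44.5, 45.65 and 46.08 FPKM with BMSCs. These ranges overlapped and the log2 fold change of −0.10 (SE 0.065) was not called (adjusted p = 0.194). It was called lower without LLC alone replicate 3 (−0.14, adjusted p = 0.0281) and with each library's trend over transcript length removed (−0.15, adjusted p = 0.0149). Its reference transcript shares no 100-base window with another gene.

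Dnajb1 encodes the main inducible HSP40, a J-domain protein that delivers clients to HSP70 and stimulates its ATPase, and lies on chr8:83608193-83612653 (plus strand). It was at 16.51, 16.4 and 18.36 FPKM in LLC alone and 19.09, 19.58 and 19.44 FPKM with BMSCs. The 3 libraries with BMSCs were highest, but LLC alone replicate 3 stood nearer to them than to its own group. The log2 fold change of 0.16 (SE 0.065) missed the threshold (adjusted p = 0.0625) and was past it in 6 of 18 alternative analyses, among them the one without LLC alone replicate 3 (0.22, adjusted p = 0.0017). Nearly all of its signal came from transcript NM_018808, at 17.1 ± 1.04 and 19.3 ± 0.211 FPKM.

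Hsp90aa1 encodes the more inducible cytosolic HSP90, which matures kinases and steroid receptors and binds Hsf1 in unstressed cells. Its level was 520.3, 533.76 and 525.74 FPKM in LLC alone and 684.96, 722.54 and 753.9 FPKM with BMSCs. The groups did not overlap, and the libraries with BMSCs were spread more widely (SD 34.5 against 6.77 FPKM). It rose by 36.8% in mean FPKM, with a log2 fold change of 0.43 (SE 0.055, adjusted p = 0.000327). Its gene lies on chr12:110690605-110702728 (minus strand), and 53.2% of its windows are shared with 3 other annotated genes. None of these was listed here under its own symbol, and the estimated counts of Hsp90aa1 were fractional in every library. Hsp90ab1, the constitutive cytosolic HSP90, also rose, from 1440 to 2251 FPKM (log2 fold change 0.62, SE 0.052, adjusted p = 3.83e-05). The FPKM ratio of Hsp90aa1 to Hsp90ab1 was 0.348, 0.373 and 0.377 in LLC alone and 0.303, 0.328 and 0.330 with BMSCs, lower in each library with BMSCs.

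Hspd1 and Hspe1 encode HSP60 and its lid HSP10, which together form the folding chamber of the mitochondrial matrix. They lie head to head on chr1:55077835-55088243 (Hspd1, minus strand) and chr1:55088132-55091307 (Hspe1, plus strand), and 112 exonic bases of the annotation belong to both on opposite strands. Whether the counting used strand was not given in the sources used here, so reads in these bases cannot be assigned with certainty. Hspd1 was at 833.4, 830.66 and 839.21 FPKM in LLC alone and 787.19, 839.12 and 849.71 FPKM with BMSCs. The groups overlapped, and the log2 fold change of −0.037 (SE 0.052, adjusted p = 0.562) was not called and turned to 0.025 with the length trend removed. Hspe1 was at 622.58, 576.21 and 775.45 FPKM in LLC alone and 407.56, 442.01 and 449.6 FPKM with BMSCs. All 3 libraries with BMSCs lay below all 3 of LLC alone, among which replicate 3 was the highest. The log2 fold change was −0.63 (SE 0.11, adjusted p = 0.00181), and −0.48 without that replicate.

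The size of the Hspe1 change moved with transcript length. Hspe1 is short, at 788 bases in the files against 2347 for Hspd1. Level against length differed between the libraries. When the tested genes were ranked by length and each gene's log2 CPM was set against its own 6-library mean, the fifth holding the shortest genes stood at medians of 0.062, 0.037 and 0.31 in LLC alone replicates 1, 2 and 3 and at −0.19, −0.091 and −0.11 in LLC with BMSCs replicates 1, 2 and 3. The fifth holding the longest genes stood at −0.022, −0.0033 and −0.37 against 0.18, 0.10 and 0.13. This trend splits by group, so a technical part of it and a difference between the groups cannot be told apart. Among the 401 tested genes of 700 to 900 bases the median log2 fold change was −0.33, with 46.1% called lower and 10.2% called higher. The quartiles of this set were −0.69 and 0.024, and the main Hspe1 value of −0.63 lay between them. With the trend over length removed from each library, Hspe1 was at −0.27 (adjusted p = 0.000361), still called lower. Hspa8, Hsp90aa1 and the Hspa1a plus Hspa1b sum were then at 0.58, 0.43 and −0.63.

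**Figure D2:**
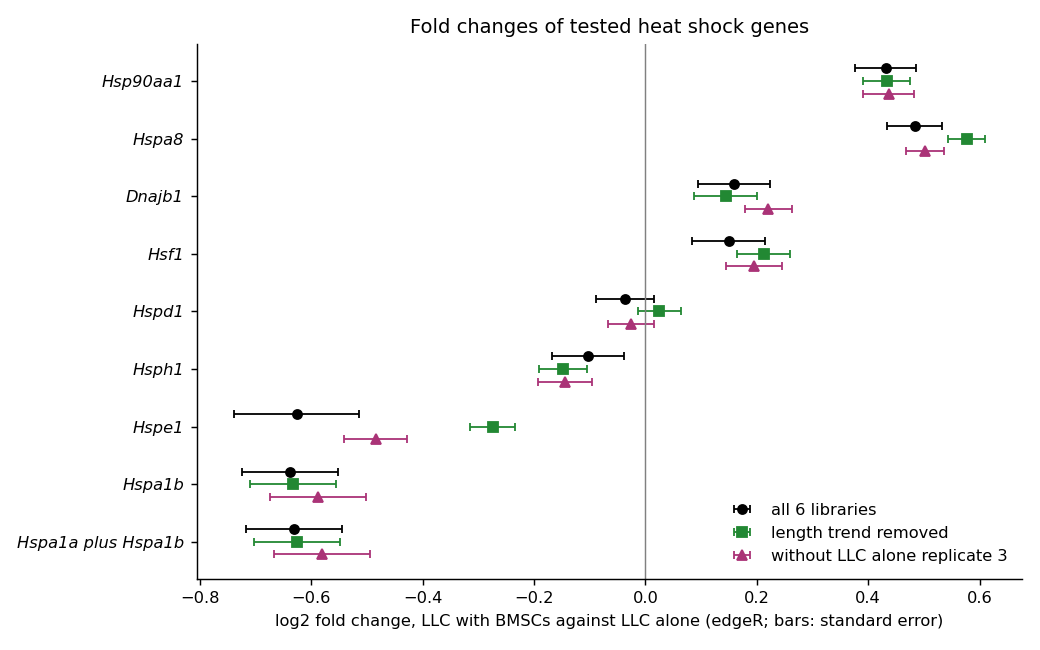
Log2 fold changes (x axis; LLC with BMSCs against LLC alone, edgeR) of the 8 tested heat shock genes and of the Hspa1a plus Hspa1b sum, with standard errors as bars, for all 6 libraries (black circles), with each library's length trend removed (green squares) and without LLC alone replicate 3 (purple triangles). Hspe1 moves from −0.63 to −0.27 with the length trend removed, while Hsp90aa1 is at 0.43 in both.

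Hspb1, whose small heat shock protein holds unfolded proteins and protects actin, was listed at 0.05, 0 and 0.05 FPKM in LLC alone and 0.08, 0 and 0.03 FPKM with BMSCs. This was 0 to 3 counts a library, at or under a floor of 3 counts, so no difference was detectable at this depth. The gene lies on chr5:135887919-135889563 (plus strand), and 56.3% of its 100-base windows also occur in Hsp25-ps1 and Gm9817, neither of which was listed here under that symbol. The other 43.7% of its windows were found in no other gene's transcript. Whether the counting kept reads that match several places of the genome was not given in the sources used here.

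Hsf1, on chr15:76477422-76501913 (plus strand), was at 17.94, 17.33 and 19.29 FPKM in LLC alone and 21.47, 19.91 and 19.83 FPKM with BMSCs. The ranges did not overlap, but the lowest library with BMSCs (19.83) was close to the highest of LLC alone (19.29). The log2 fold change of 0.15 (SE 0.065) was not called (adjusted p = 0.0784). It was past the threshold in 3 of 18 alternatives, without TMM scaling (0.17), with the length trend removed (0.21) and without LLC alone replicate 3 (0.19). The reference transcript NM_008296 was at 7.06, 6.41 and 8.43 FPKM against 8.34, 7.44 and 9.18 FPKM, with overlapping ranges. The rest came from 4 transcripts that the authors' pipeline assembled. Of these, BGI_novel_T002743 was at 6.28, 6.42 and 6.17 FPKM against 8.21, 7.63 and 5.6, and BGI_novel_T002741 at 2.8, 2.65 and 2.9 against 2, 2.23 and 2.33. BGI_novel_T002742 was at 1.81, 1.85 and 1.79 FPKM against 1.6, 2.39 and 1.63. BGI_novel_T002744 was listed at 0 in all 3 LLC alone libraries and at 1.32, 0.22 and 1.08 FPKM with BMSCs. Such shares between overlapping transcripts are estimates, and transcripts were not tested.

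Ratios taken within a library do not depend on its scaling, and 6 were computed, chosen after the values were seen. The ratio of Hspe1 to Hspd1 in FPKM was 0.747, 0.694 and 0.924 in LLC alone and 0.518, 0.527 and 0.529 with BMSCs. The partners of the mitochondrial chamber were thus at 0.525 ± 0.00601 with BMSCs against 0.788 ± 0.121, and the difference of their log2 fold changes went from −0.59 to −0.30 with the length trend removed. The ratio of Hspa8 to its exchange factor Hsph1 was 17.1 ± 1.44 against 25.6 ± 0.325, that of Hspa8 to Dnajb1 48.1 ± 2.33 against 60.1 ± 0.207, and that of Hspa8 to Hspd1 0.983 ± 0.00906 against 1.41 ± 0.0468. The groups overlapped in none of the 6 ratios, each with an exact permutation p of 0.1 (two-sided, n = 3 per group, adjusted p = 0.1 over the 6), the smallest the design allows. Each ratio holds a gene whose groups already did not overlap in FPKM, and most hold Hspa8. Their separation was thus largely fixed by the choice and is not independent support. The share of other gene pairs that separate was not computed.

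**Figure D3:**
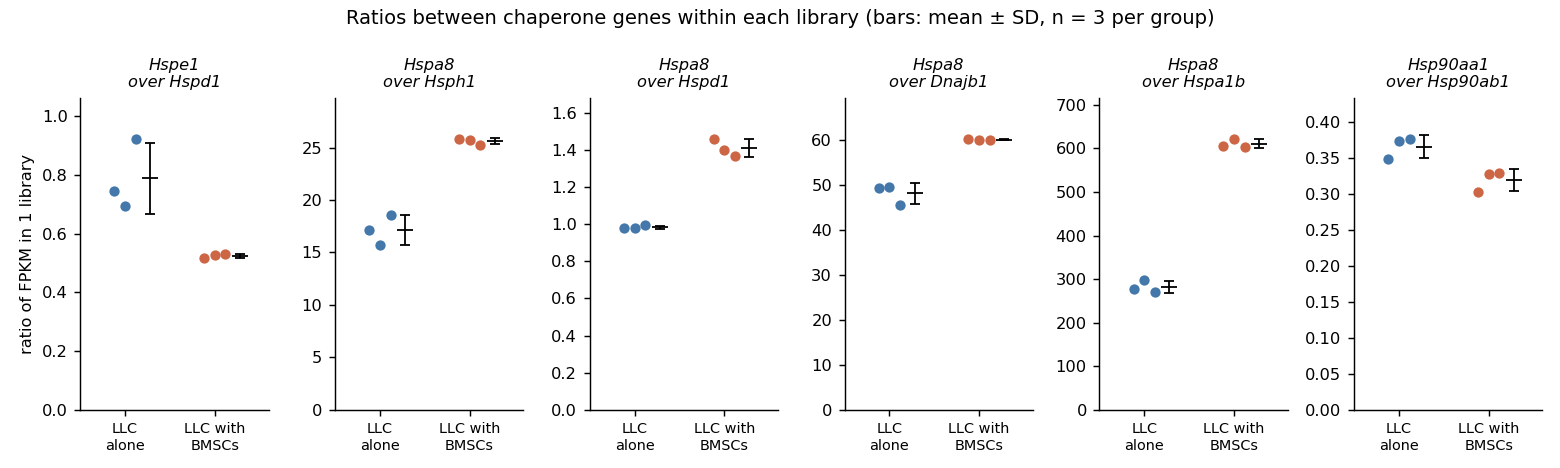
Ratios of FPKM between pairs of chaperone genes (y axes, each from 0) in the 3 LLC alone libraries (blue) and the 3 LLC with BMSCs libraries (orange), with the mean and SD as black bars. The ratio of Hspe1 to Hspd1 lies at 0.694 to 0.924 in LLC alone and 0.518 to 0.529 with BMSCs, and the ratios of Hspa8 to other genes lie higher with BMSCs.

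The other chaperones of the network were read from 9 lists written from general knowledge, with 82 genes tested. Of these, 12 rose (14.6%), 37 fell (45.1%) and 33 were not called, with a median log2 fold change of −0.12. Over all tested genes 31.5% rose and 31.3% fell. Over the 804 tested genes of at least 100 FPKM 14.1% rose and 51.4% fell, with a median of −0.24. The shares of the listed genes differed from the former and were near the latter. Many listed genes lie under 100 FPKM, such as Bag3 (mean 26.7) and Hsf2 (12.9), so that later-added background does not match them in level. Whether level accounts for these shares was not tested, and they are not read as a result about chaperones. With the length trend removed, 24 rose and 33 fell, and without LLC alone replicate 3 these numbers were 19 and 37. They were 7 and 23 with the closest replicate pairs summed (LLC alone replicates 1 and 2, LLC with BMSCs replicates 2 and 3). That setting leaves 2 values per group and so has less power to call genes. Within each list, the genes named below are those with the highest mean FPKM. Among the HSF family and proteins that bind its members, 3 of 4 tested genes fell. This was 1 without LLC alone replicate 1 or without LLC with BMSCs replicate 2 or 3, and 2 with any other library left out. Hsbp1, which binds the trimer of Hsf1, was at 67.1 and 47.7 FPKM (log2 fold change −0.52), Hsf2 at 13.6 and 12.1 FPKM (−0.16) and Hsf2bp at 0.183 and 0.107 FPKM (−0.82), while Hsf4 was not called. Among other HSP70 and HSP110 proteins, 2 rose and 2 fell of 7 (1 fell without LLC with BMSCs replicate 2), with Hspa13 higher (0.41), Hspa4 lower (−0.19), and Hspa14 and Hspa4l not called. Among other HSP90 genes and co-chaperones, 4 rose and 7 fell of 19, and 8 rose and 8 fell both without LLC alone replicate 3 and with the length trend removed. Beside Hsp90ab1, Ptges3 (p23, which stabilises the closed HSP90 dimer) rose by 0.30 on the log2 scale, and Cacybp and Ahsa1 (the ATPase activator of HSP90) were not called.

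Partners of HSP70 were read next, against the same shares over all tested genes. Among 9 other J-domain proteins 1 rose and 4 fell, with Dnajb6 (−0.33) and Dnajb12 (−0.29) lower and Dnaja1 and Dnaja2 not called. Among 6 nucleotide exchange factors 1 rose and 4 fell, and Bag1 (−0.27), Bag2 (−0.27), Bag3 (−0.66) and Hspbp1 (−0.29) were all lower, although 2 of the 6 fell with the length trend removed and without LLC with BMSCs replicate 1 or 3. Bag3, a stress-induced partner of HSP70 and small heat shock proteins, was at 32.5 FPKM in LLC alone and 20.9 FPKM with BMSCs. The other small heat shock proteins had 3 of 5 lower. This was 2 without LLC alone replicate 2, without LLC with BMSCs replicate 2 or 3, and with the closest replicate pairs summed. With the length trend removed, 1 rose and 2 fell. Hspb8, the partner of Bag3, went from 79.1 to 42.7 FPKM (−0.91) and Hspb6 from 17.8 to 6.65 FPKM (−1.45). Cryab went from 1.19 to 0.687 FPKM (−0.82), while Hspb11 was not called. With Hspb1 near 0, Hspb8 was the small heat shock gene with the highest FPKM among those listed.

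In other compartments, 3 abundant relatives of HSP70 and HSP90 fell. Hspa5 (BiP), the HSP70 of the endoplasmic reticulum, went from 951 to 432 FPKM (log2 fold change −1.16, SE 0.055, adjusted p = 2.48e-06), and Hsp90b1, its HSP90, from 571 to 464 FPKM (−0.32). Serpinh1, the collagen chaperone HSP47, was also lower (−0.85), Dnajb11 was not called, and in all 1 rose (2 without LLC alone replicate 3) and 5 fell of 9 genes of this compartment. Hspa9 (mortalin), the mitochondrial HSP70, went from 551 to 369 FPKM (−0.60, SE 0.054, adjusted p = 5.45e-05), while Lonp1 (0.16) and Trap1, the mitochondrial HSP90 (0.23), rose, and Clpp was not called, among 2 that rose and 3 that fell of 9. These 2 rises were 0 without LLC with BMSCs replicate 2 and with the closest replicate pairs summed, 1 without LLC alone replicate 1 or LLC with BMSCs replicate 1 or 3, and 4 with the length trend removed. In the cytosolic chaperonin CCT and prefoldin, 1 rose and 6 fell of 14, with Tcp1 higher (0.36), Cct5 lower (−0.24), and Cct2 and Cct3 not called. With the length trend removed, 6 of these 14 rose and 4 fell. Without LLC alone replicate 3, 3 rose, without LLC with BMSCs replicate 1, 2 rose and 4 fell, and without its replicate 3, 4 fell.

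**Figure D4:**
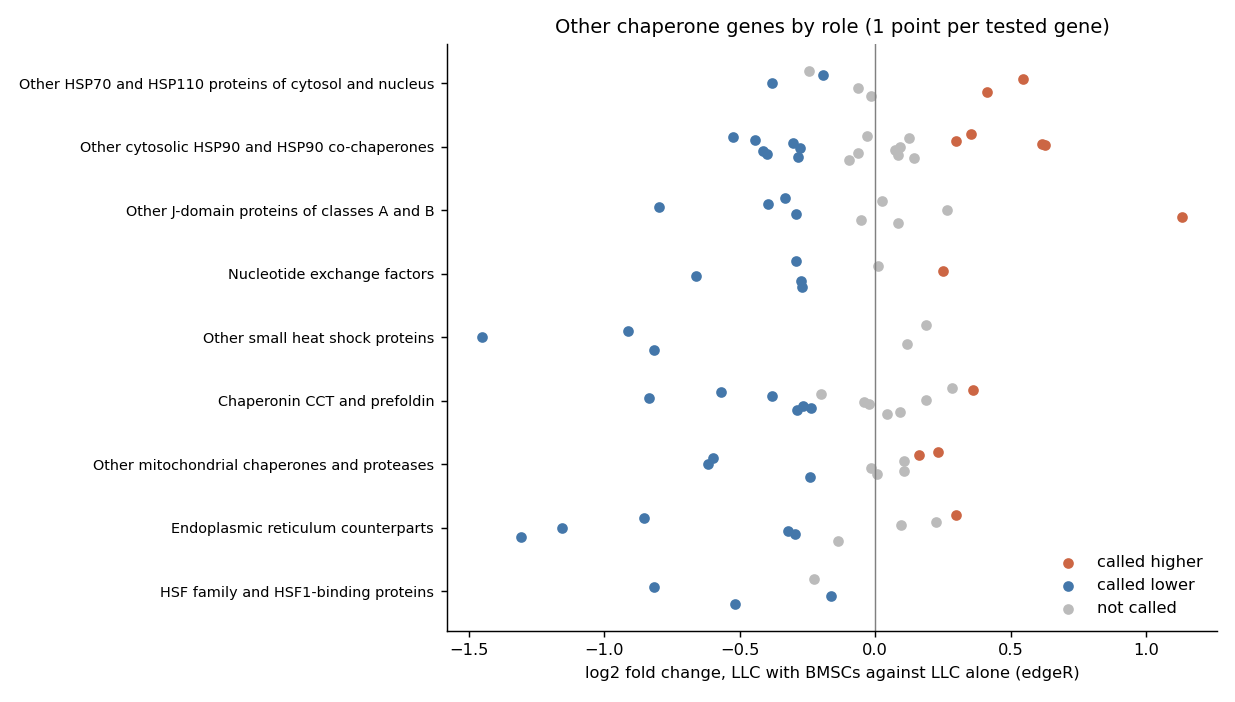
Log2 fold changes (x axis; LLC with BMSCs against LLC alone, edgeR) of the 82 tested chaperone genes other than the 10 heat shock genes, grouped by role (y axis), 1 point per gene, coloured by the call at an adjusted p under 0.05. The points range from −1.45 to 1.13, with 12 called higher and 37 called lower.

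Sorting and dissociation can themselves raise stress genes, so 14 immediate early genes were read beside the heat shock genes. Of these, 5 rose, 5 fell and 4 were not called, where 31.5% of all tested genes rose and 31.3% fell. The 14 genes summed to 873–1029 CPM in LLC alone and 838–920 CPM with BMSCs, with overlap, a sum that joins changes in opposite directions. By level, Ier3 was higher (0.35), Atf3 was lower (from 95.1 to 10.9 FPKM, log2 fold change −3.15, SE 0.075, adjusted p = 1.05e-07), and Junb and Jund were not called. Among the less abundant ones, named after their values were seen, Socs3 (2.04), Fos (2.15) and Fosb (1.48) rose. So did Egr1, which had almost no counts in LLC alone. Jun (−0.34), Ier2 (−0.31), Dusp1 (−0.73) and Zfp36 (−0.32) fell, and Nr4a1 and Btg2 were not called. The part of tissue handling in the heat shock values was not tested.

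The genes whose log2 CPM over the 6 libraries most resembled that of Hsf1, among 10589 genes with at least 100 normalised counts, were Bin1 (Pearson's r = 0.992), Noct (0.990), Gstm1 (0.989), Nfia (0.989) and Ddx49 (0.987). For the Hspa1a plus Hspa1b sum they were N6amt1 (0.999), Pfdn2 (0.999), Cyp27b1 (0.999), Gars (0.998) and Khdrbs1 (0.998). The 10 heat shock genes were left out of this search, and Pfdn2, a subunit of prefoldin, was the only gene found that is on the chaperone lists. These correlations describe 6 libraries that fall into 2 groups, and share their depth and length trend.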

How the data were processed

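RNA sequencing of sorted LLC cells was used, with 3 libraries per group as labelled. Libraries were enriched with oligo-dT and read on the BGISEQ-500 in pairs, according to the study's methods. The submitters' processing notes list HISAT, StringTie, Cufflinks, GATK and build mm8, without their roles. The authors deposited estimated counts (expected counts, not normalized, which need not be whole) and FPKM values. The counts were rounded, scaled by TMM and tested with edgeR 4.0.16 in R 4.3.3 (filterByExpr, Benjamini-Hochberg). The biological coefficient of variation was 9.92%. On simulated data, edgeR recovered 181 of 200 genes changed by 1 on the log2 scale, with 10 false calls among 191. The simulation changed only these 200 of 13353 genes and held no length trend. In the real data 62.9% of genes were called and a length trend was present, so these rates do not carry over to the calls above. Alternatives used DESeq2 1.42.0, limma 3.58.1 on log2(FPKM + 1) and log2(FPKM + 0.1), other scalings and filters, and a length correction. Others summed the closest replicate pairs, took replicate numbers as blocks, left out libraries or also required a minimum fold change. Positions came from GENCODE (GRCm38). Shared 100-base windows were counted between annotated transcripts. The heat shock genes and lists were chosen with earlier results of these data known. Named genes were the 10 heat shock genes, the 4 of each list with the highest mean FPKM, and the 5 most alike in pattern to Hsf1 and to the Hspa1a plus Hspa1b sum. A list of other heat-responsive genes was fixed but is not reported here.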

Additional observations from a re-analysis of the deposited data

How the results depend on the processing

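The fold changes of the tested heat shock genes, the Hspa1a plus Hspa1b sum and the counts of calls were recomputed under 18 alternatives, and the shares, ratios, marker sums, motif counts and likeness ranks were not. The number of heat shock genes called higher was 2, and became 4 without TMM scaling and 4 with the length trend removed, where Dnajb1 and Hsf1 joined. It ranged from 2 to 4 when 1 library was left out, with 4 without LLC alone replicate 3. With a log2 fold change of at least 1 also required, 0 heat shock genes were called higher and 0 lower, 1155 genes were called higher and 957 lower, and the Hspa1a plus Hspa1b sum at −0.63 was no longer called. Hspd1 changed sign, to 0.025, with the length trend removed. Hspa8, Hsp90aa1, Hspe1, Hspa1b and the sum kept their direction and call in the other 17. Hspa1a and Hspb1, untested in the main analysis, had adjusted p values of 0.964 and 0.97 without the filter. The replicate block gave 2 heat shock genes higher and 2 lower, and 4161 genes higher and 4058 lower. Same-numbered libraries correlated at 0.076, −0.106 and 0.057 in their deviations from the group means, and not every library was closest to its own number, so the numbers were not taken as pairs. Depth limits what can be said of Hspa1a and Hspb1.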
